A study of Mus musculus with 36 samples.

Results

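The 10 genes described here encode subunits of the AMPA and NMDA receptors, the main ionotropic glutamate receptors of the brain. They were taken by symbol from the 78298 gene identifiers of a mouse hippocampal RNA sequencing table: Gria1, Gria2, Gria3 and Gria4 for the AMPA receptor, and Grin1, Grin2a, Grin2b, Grin2c, Grin2d and Grin3a for the NMDA receptor. The rule uses symbols alone, but the set was chosen with earlier results of these data known. All 10 passed the filter on low counts, and together they held 0.874% of all counts.

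The study measured bulk hippocampal RNA in 36 mice, 6 in each of 6 groups, with 3 males and 3 females per group. Wild-type (WT) mice, mice labelled Fmr1-/- (Fmr1 KO, in both sexes) and mice labelled Sko-/- (taken as the Shank3 knockout that the labels describe, Shank3 KO) received either vehicle or cannabidiol (CBD, a plant cannabinoid) under the skin for 7 days. Males received CBD at 5 mg/kg and females at 50 mg/kg, so sex and dose cannot be told apart among treated mice. Fmr1 encodes FMRP, an RNA-binding protein lost in fragile X syndrome. The product of Shank3 is a scaffold of the postsynaptic density. The sources used here do not name the mutant alleles, the strain background, the age or the vehicle. Each library carried its own animal code and was taken as 1 animal. WT CBD replicate 1 has a code with other leading letters than the rest of the WT mice, which share theirs with the Fmr1 KO mice, and the Shank3 KO mice have a prefix of their own. The meaning of these letters is not stated in the labels.

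AMPA receptors are tetramers that carry most of the fast excitatory current. A receptor that holds the Gria2 product is nearly impermeable to calcium, because Gria2 transcripts are edited by ADAR2 (Adarb1) at 1 codon of the pore. NMDA receptors need the Grin1 product, which binds the co-agonist glycine or D-serine, joined to Grin2 products, which bind glutamate. Grin2a and Grin2b are the main partners in the forebrain, and their balance shifts from Grin2b to Grin2a as the brain matures. Grin2d is best known from interneurons and diencephalon, Grin2c from cerebellum and astrocytes, and Grin3a as a subunit that lowers calcium flow.

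The stretches of the reading frame around the pore site are shown because this site sets the calcium permeability of both families. They come from GENCODE M21 transcripts (GRCm38), are written 5′ to 3′ in the direction of the transcript, and hold 45 bases each. The capitals mark the codon of the glutamine/arginine site in the AMPA subunits.

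Gria1: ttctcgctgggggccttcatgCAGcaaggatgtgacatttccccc
Gria2: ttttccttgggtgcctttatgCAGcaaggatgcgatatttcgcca
Gria3: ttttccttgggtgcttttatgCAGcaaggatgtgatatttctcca
Gria4: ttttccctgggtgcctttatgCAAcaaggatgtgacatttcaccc

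In the NMDA subunits shown the capitals mark the asparagine codon of the pore, which shapes magnesium block and calcium flow.

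Grin1: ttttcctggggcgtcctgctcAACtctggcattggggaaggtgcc
Grin2a: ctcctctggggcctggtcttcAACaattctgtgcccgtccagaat
Grin2c: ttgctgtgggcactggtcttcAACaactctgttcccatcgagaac
Grin2d: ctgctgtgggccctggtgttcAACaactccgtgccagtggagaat

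The 4 AMPA stretches encode the same residues and share 80.0% to 93.3% of their bases, with Gria2 and Gria3 closest at 42 of 45. Each glutamine codon is the genomic one: the Gria2 codon lies at chr3:80706911-80706913 on the minus strand in exon 11 of 16, and the counts, which are per gene, do not show how much of the RNA was edited there. The codon lies at chr11:57243094-57243096 on the plus strand in exon 11 of 16 of Gria1, and at chrX:41610265-41610267 on the plus strand in exon 11 of 16 of Gria3. In Gria4 it lies at chr9:4464137-4464139 on the minus strand in exon 12 of 17. The NMDA codons shown lie on the minus strand, for instance at chr16:9653561-9653563 in exon 10 of 14 of Grin2a. The Grin2a and Grin2d stretches share 80.0% of their bases, and the Grin1 stretch shared at most 44.4% with another subunit.

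Levels are CPM, counts relative to the size of the library, scaled between libraries by TMM. The deposited length of every member equals its whole gene span in that annotation, so the counts were taken to cover introns as well as exons. Exons make up 1.67% of the span of Gria4, 4.19% of Grin2a and 34.6% of Grin1, so levels of long genes may rest largely on introns. Total counts per library ran from 11655697 to 33228089, and the count of a member in 1 library from 93 (Grin2d) to 94701 (Gria1). Markers of CA1, CA3 and dentate neurons were detected in every group, and cerebellar markers summed to at most 2.01 CPM. The libraries differed in what else they held. Markers of striatum summed to between 22.7 and 455 CPM per library, of thalamus and habenula to between 59.3 and 467 CPM, and of choroid plexus to between 15.3 and 2792 CPM. Libraries were set apart by a striatal score (mean log2 CPM of its markers) above 3 or a dentate score under 3.5. Thalamic and choroid plexus markers did not enter this rule, so libraries rich in them could remain. By this rule 9 libraries stood apart: WT CBD replicates 2, 3 and 6, Fmr1 KO vehicle 4, Fmr1 KO CBD 3, Shank3 KO vehicle 2, 3 and 4, and Shank3 KO CBD 2. Of these, Fmr1 KO CBD 3 and WT CBD 2 were the lowest in dentate markers, with a summed 39.8 and 106 CPM against a median of 272 CPM over all libraries. The other 7 were high in striatal markers. Results are given with all libraries, and several are also given without these 9, an alternative chosen after seeing the data. That alternative keeps 27 libraries, and WT CBD and Shank3 KO vehicle lose the most. Its values therefore rest on small groups, above all where the sexes are separated.

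The targeted genes followed their labels. Fmr1 had a median of 75.2 CPM in WT vehicle and 41.1 CPM in Fmr1 KO vehicle libraries, and the groups did not overlap. Shank3 had a median of 267 CPM in WT vehicle and 166 CPM in Shank3 KO vehicle libraries, again without overlap. Both KO lines therefore kept counts over the targeted gene body. Ide, an insulin-degrading protease gene that neither line targets, had the smallest p of all genes against WT under vehicle in both lines, at a log2 fold change of 1.15 (SE 0.05, adjusted p = 5.9e-18 by edgeR) in Fmr1 KO and 1.11 (SE 0.05, adjusted p = 1.95e-17 by edgeR) in Shank3 KO. Differences of line or colony and the loss of the targeted gene cannot be told apart in the comparisons with WT.

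Per length, the AMPA subunits Gria2 and Gria1 led the receptor genes. In WT vehicle mice Gria2 had 10.02 ± 1.35 (SD, n = 6) CPM per kb of gene body and Gria1 had 7.31 ± 1.70 (SD, n = 6). Grin1 followed with 5.91 ± 0.689 (SD, n = 6), then Grin2b with 4.82 ± 0.728 (SD, n = 6) and Grin2a with 4.14 ± 1.36 (SD, n = 6). These 5 genes formed an upper tier in which each range overlapped that of the next gene. Grin2c had 2.03 ± 0.179 (SD, n = 6) and Gria3 1.91 ± 0.219 (SD, n = 6) CPM per kb. The lowest were Gria4 with 0.481 ± 0.157 (SD, n = 6), Grin3a with 0.380 ± 0.127 (SD, n = 6) and Grin2d with 0.2002 ± 0.0789 (SD, n = 6). Among neighbours in this order only Grin2a and Grin2c, and Gria3 and Gria4, had ranges in WT vehicle that did not overlap. Gria2 exceeded Gria1 per length in all 36 libraries, whereas Grin2c exceeded Gria3 in 18 of 36. As a share of the AMPA subunits per length, Gria2 held 51.0% ± 1.85 (SD, n = 6), Gria1 36.7% ± 2.87, Gria3 9.80% ± 1.09 and Gria4 2.49% ± 0.947 in WT vehicle. Introns count in these values, so the order is one of gene-body coverage.

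**Figure D1:**
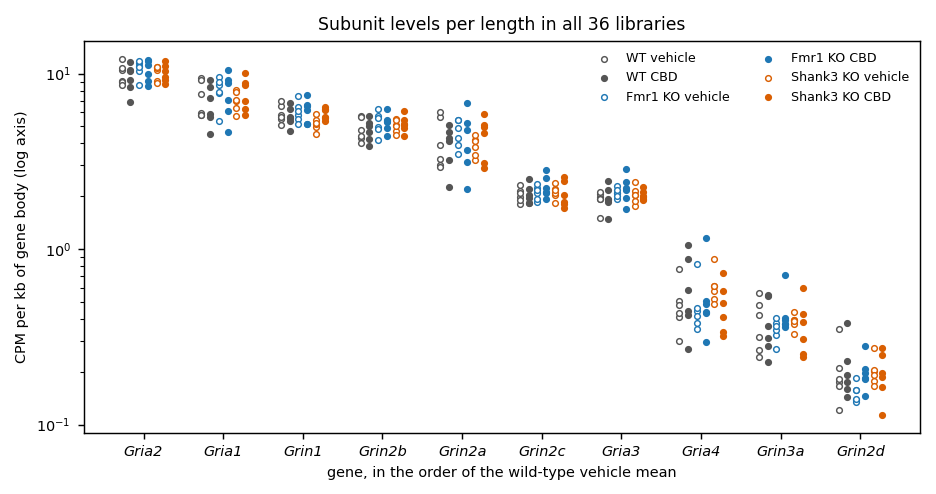
Level of each subunit gene as CPM per kb of gene body (log axis) in all 36 libraries, 1 point per library, with vehicle groups as open and CBD groups as filled points. By their WT vehicle means the genes fall into an upper tier from Gria2 to Grin2a, a middle tier of Grin2c and Gria3, and a lower tier of Gria4, Grin3a and Grin2d. Over all 36 libraries the upper and middle tiers overlap. Grin2a falls to 2.19 CPM per kb, while Grin2c reaches 2.81 and Gria3 2.84.

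Gria1, the AMPA subunit that is added to CA1 synapses in long-term potentiation, varied more within groups than between them. Its lowest, median and highest level was 1852, 2166 and 3017 CPM in WT vehicle, 1711, 2620 and 3058 CPM in Fmr1 KO vehicle, and 1815, 2242 and 2566 CPM in Shank3 KO vehicle. Under CBD it was 1443, 2089 and 2914 CPM in WT, 1480, 2537 and 3353 CPM in Fmr1 KO, and 1842, 2482 and 3207 CPM in Shank3 KO. All 6 groups overlapped, and the lowest libraries, WT CBD 6 and Fmr1 KO CBD 3, were among those that stood apart. Gria2 had group medians between 1186 CPM in WT vehicle and 1333 CPM in Fmr1 KO vehicle, and single libraries ran from 834 to 1478 CPM. Gria3, an X-linked subunit, had group medians between 532 CPM in WT CBD and 610 CPM in Fmr1 KO CBD, over a range of 412 to 789 CPM.

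Gria4, an AMPA subunit known from interneurons and thalamus, was the most variable member. Its lowest, median and highest level was 113, 172 and 291 CPM in WT vehicle, 133, 162 and 312 CPM in Fmr1 KO vehicle, and 184, 225 and 330 CPM in Shank3 KO vehicle. Under CBD it was 101, 194 and 396 CPM in WT, 112, 174 and 435 CPM in Fmr1 KO, and 120, 171 and 277 CPM in Shank3 KO. In all 3 CBD groups and in Fmr1 KO and Shank3 KO vehicle the highest library was one of those that stood apart. The within-group SD of Gria4 was 0.523 on the log2 scale, at percentile 95.7 of 9433 genes with a mean of at least 10 CPM, whose median was 0.188. Grin2a (0.410), Grin3a (0.398), Grin2d (0.385) and Gria1 (0.333) were also well above that median. The SDs of the other 5 members lay around it, between 0.168 and 0.193, with Gria2 (0.193) slightly above. Group membership held between 5.03% (Grin2a) and 21.98% (Grin1) of a member's variance, with 10.8% the median of those genes.

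Grin1 had the lowest group median in Shank3 KO vehicle. Its lowest, median and highest level was 143, 160 and 194 CPM in WT vehicle, 145, 167 and 209 CPM in Fmr1 KO vehicle, and 126, 145 and 164 CPM in Shank3 KO vehicle. Under CBD it was 132, 157 and 190 CPM in WT, 145, 178 and 212 CPM in Fmr1 KO, and 149, 165 and 180 CPM in Shank3 KO. Every pair of groups overlapped. An antisense gene, Grin1os, overlaps 7706 of the 28007 bases of Grin1 and was listed at 0 counts, and the sources used here do not give the strand setting of the counting, so the Grin1 level is uncertain in that stretch.

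Grin2a was lower than Grin2b per gene, with group medians of 1542 to 2047 CPM against 2111 to 2448 CPM. Per length, Grin2b exceeded Grin2a in 34 of 36 libraries. Grin2a was the wider of the pair, from 936 CPM in Fmr1 KO CBD 3 to 2891 CPM in Fmr1 KO CBD 2, whereas Grin2b ran from 1781 to 2896 CPM. Grin2c was narrow, with group medians between 35.0 and 39.1 CPM. Grin3a had group medians between 62.3 and 72.0 CPM over a range of 41.6 to 130 CPM.

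Grin2d was the member with the fewest counts. Its lowest, median and highest level was 5.61, 8.25 and 16.3 CPM in WT vehicle, 6.28, 6.88 and 8.60 CPM in Fmr1 KO vehicle, and 7.69, 9.13 and 12.6 CPM in Shank3 KO vehicle. Under CBD it was 6.64, 8.55 and 17.6 CPM in WT, 6.73, 8.86 and 13.0 CPM in Fmr1 KO, and 5.29, 8.89 and 12.8 CPM in Shank3 KO. The Fmr1 KO vehicle libraries were low and close together but overlapped every other group. Kdelr1, a protein-coding gene on the opposite strand, overlaps 5607 of the 46496 bases of Grin2d, so the Grin2d values are uncertain.

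**Figure D2:**
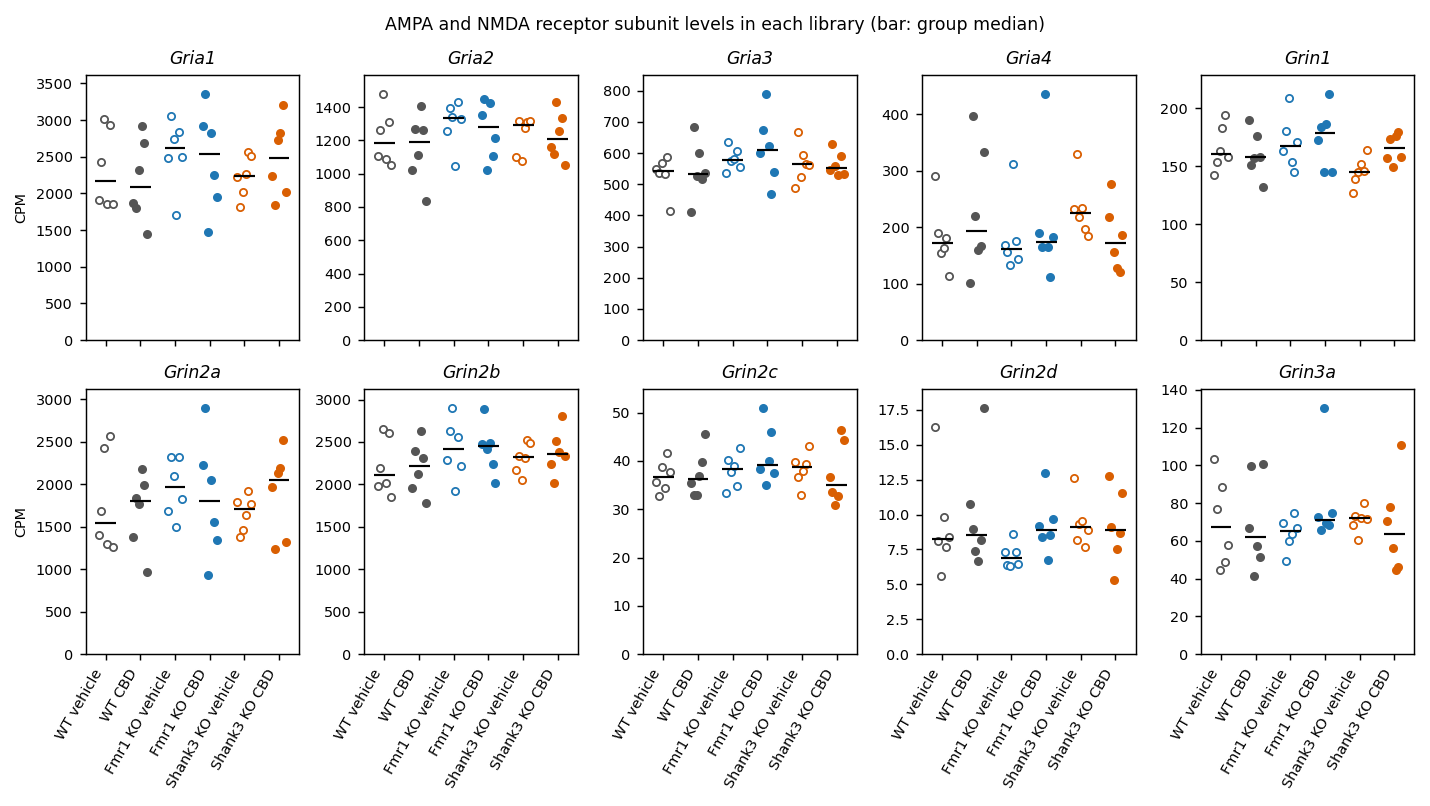
Level of each subunit gene in CPM (axes from 0) in each of the 36 libraries by group, with open points for vehicle, filled points for CBD and a bar at the group median. The 6 groups overlap for all 10 genes, and single libraries such as the 435 CPM of Gria4 in Fmr1 KO CBD lie far from the rest of their group.

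The first question was whether the receptor genes differed between each KO line and WT. A gene was called at an adjusted p under 0.05 from edgeR's quasi-likelihood test, over 21172 tested genes. Under vehicle, 0 of 10 members were called in Fmr1 KO against WT, where 0.0283% of all tested genes were called and 0 members had an unadjusted p under 0.05, against 2.25% of genes. The smallest p belonged to Grin2d, with a log2 fold change of -0.38 (SE 0.21, 95% interval -0.81 to 0.05, unadjusted p = 0.0785, adjusted p = 1 by edgeR). The fitted difference was above 0 for 7 of 10 members, with a median of 0.07 against 0.00141 over all tested genes. Thalamic and habenular markers, whose score went with Grin2d over the libraries as given further on, summed to a median of 101 CPM in WT vehicle and 99.8 CPM in Fmr1 KO vehicle libraries. Grin2d was at 16.3 CPM in WT vehicle 1 and at most at 9.81 CPM in the other WT vehicle libraries. With scores of dentate, thalamic and interneuron markers in the model, an alternative chosen after seeing the data, the Grin2d value was -0.28 (unadjusted p = 0.0228, adjusted p = 1 by edgeR). Over all alternatives the value ran from -0.48 to -0.18, and 0.0228 was the smallest unadjusted p.

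Under CBD, 0 of 10 members were called in Fmr1 KO against WT, where 0.0331% of genes were called, and 0 members had an unadjusted p under 0.05, against 7.4% of genes. The smallest p was that of Gria3, at a log2 fold change of 0.17 (SE 0.11, unadjusted p = 0.122, adjusted p = 0.745 by edgeR). With both treatments averaged, 0 of 10 were called, against 0.0378% of genes, with 0 members and 4.8% of genes at an unadjusted p under 0.05, and 8 of 10 fitted differences were above 0, with a median of 0.11 against 0.000949 over all genes. Gria3 again had the smallest p, at 0.15 (SE 0.08, 95% interval 0.00 to 0.30, unadjusted p = 0.0562, adjusted p = 0.955 by edgeR). Both comparisons share the Fmr1 KO and WT CBD libraries. Without WT CBD 1, the library with the lowest Gria3 level, Gria3 was at 0.09 (unadjusted p = 0.388) under CBD and 0.11 (unadjusted p = 0.134) averaged. Without WT CBD 2, a library that stood apart, it was at 0.25 under CBD (unadjusted p = 0.025, adjusted p = 0.487 by edgeR). Over all alternatives Gria3 ran from 0.08 to 0.25 under CBD and from 0.10 to 0.19 averaged. The share of counts in genes longer than 100 kb, which went with Gria3 over the libraries, had a median of 48.5% in Fmr1 KO and 47.5% in WT under vehicle, and of 48.7% and 49.5% under CBD, and its part in the Gria3 value was not tested.

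In Shank3 KO against WT, 0 of 10 members were called under vehicle, where 0.0378% of genes were called, and 0 members had an unadjusted p under 0.05, against 5.63% of genes. Grin1 had the smallest p, with a log2 fold change of -0.19 (SE 0.10, 95% interval -0.39 to 0.01, unadjusted p = 0.0642, adjusted p = 0.853 by edgeR). Beside this value, thalamic and habenular markers summed to a median of 131 CPM in Shank3 KO vehicle and 101 CPM in WT vehicle libraries, and dentate markers to 208 and 294 CPM. With the same 3 marker scores in the model, the Grin1 value was -0.08 (unadjusted p = 0.238). Without the 9 libraries that stood apart it was -0.17 (unadjusted p = 0.154). Gria1 was at -0.06 (unadjusted p = 0.741) under vehicle and at 0.06 (unadjusted p = 0.782) without the 9 libraries. With the 3 marker scores, chosen after seeing the data, it was at 0.25 (unadjusted p = 0.0173, adjusted p = 0.416 by edgeR), so its direction depended on the model. A model with striatal, choroid plexus and oligodendrocyte scores was also fitted, and its values for this comparison are not given here. Under CBD, 0 of 10 were called, against 0.0425% of genes, with 0 members and 1.65% of genes at an unadjusted p under 0.05. Gria4 had the smallest p there, at -0.37 (SE 0.29, unadjusted p = 0.215, adjusted p = 1 by edgeR), and without the 9 libraries its sign turned, to 0.17 (unadjusted p = 0.47). With both treatments averaged, 0 of 10 were called, against 0.0614% of genes, with 0 members and 2.13% of genes at an unadjusted p under 0.05, and the fitted differences lay between -0.07 (Grin1) and 0.09 (Grin2b, unadjusted p = 0.282). Without the 9 libraries the Grin1 value was -0.12.

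The KO lines were also set against each other under vehicle, where 0 of 10 members were called and 0.00945% of genes were. Here 2 members had an unadjusted p under 0.05, as had 4.98% of genes. Grin1 was higher in Fmr1 KO by a log2 fold change of 0.23 (SE 0.10, 95% interval 0.03 to 0.43, unadjusted p = 0.0259, adjusted p = 0.869 by edgeR). Grin2d was lower in Fmr1 KO, at -0.43 (SE 0.21, 95% interval -0.86 to 0.00, unadjusted p = 0.0482, adjusted p = 0.869 by edgeR). Neither passed the threshold. With the scores of dentate, thalamic and interneuron markers in the model, Grin1 was at 0.10 (unadjusted p = 0.144) and Grin2d at -0.10 (unadjusted p = 0.428). Without the 9 libraries they were at 0.25 (unadjusted p = 0.0484) and -0.55 (unadjusted p = 0.0385).

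The second question was whether CBD changed the receptor genes. In each of the 3 genotypes 0 of 10 members were called for CBD against vehicle, as were 0% of all tested genes in each genotype. At an unadjusted p under 0.05 stood 2.68% of genes in WT, 2.63% in Fmr1 KO and 4.41% in Shank3 KO, and 0 members. In WT mice the smallest p was that of Gria4, at a log2 fold change of 0.37 (SE 0.29, unadjusted p = 0.218, adjusted p = 1 by edgeR). Without the libraries that stood apart, among them WT CBD 2, 3 and 6, its sign turned, to -0.35 (unadjusted p = 0.138). In Fmr1 KO mice it was that of Grin2d, at 0.39 (SE 0.21, 95% interval -0.04 to 0.82, unadjusted p = 0.0735, adjusted p = 1 by edgeR). In Shank3 KO mice it was that of Grin1, at 0.19 (SE 0.10, 95% interval -0.01 to 0.38, unadjusted p = 0.0665, adjusted p = 0.963 by edgeR). The Shank3 KO vehicle libraries enter this Grin1 value, the KO against WT value and the comparison of the KO lines. Averaged over the 3 genotypes, 0 members were called, against 0.0189% of genes, with 0 members and 3.16% of genes at an unadjusted p under 0.05, and the fitted CBD differences lay between -0.05 (Gria2) and 0.14 (Grin2d, unadjusted p = 0.258). Without the 9 libraries these values were -0.01 and 0.02.

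The CBD effect did not differ detectably between genotypes. For the difference between Fmr1 KO and WT, 0 of 10 members and 0% of genes were called, with 3% of genes at an unadjusted p under 0.05, and the smallest p among members was that of Grin3a (0.32, SE 0.30, unadjusted p = 0.298, adjusted p = 0.993 by edgeR). For Shank3 KO against WT, again 0 of 10 members and 0% of genes were called, with 4.74% of genes at an unadjusted p under 0.05. Gria4 had the smallest p there, at -0.73 (SE 0.41, 95% interval -1.56 to 0.11, unadjusted p = 0.0858, adjusted p = 0.912 by edgeR). Without the 9 libraries that stood apart this difference was 0.02, and with scores of dentate, thalamic and interneuron markers in the model it was 0.08.

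The intervals give what these groups could resolve. In a comparison of 2 groups the half-width of the 95% interval ran from 0.20 for Grin1 and Grin2c to 0.59 for Gria4 on the log2 scale. Across the 7 genotype and CBD comparisons no interval of a member reached below -0.96 or above 0.96. No member had groups that did not overlap in any of these 7 comparisons, where the share of tested genes that had was 0.128%, 0.184%, 0.279% and 0.0897% for the 4 genotype comparisons in the order above and 0.052%, 0.052% and 0.241% for CBD in WT, Fmr1 KO and Shank3 KO. A p that misses the threshold does not show that levels were equal.

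**Figure D3:**
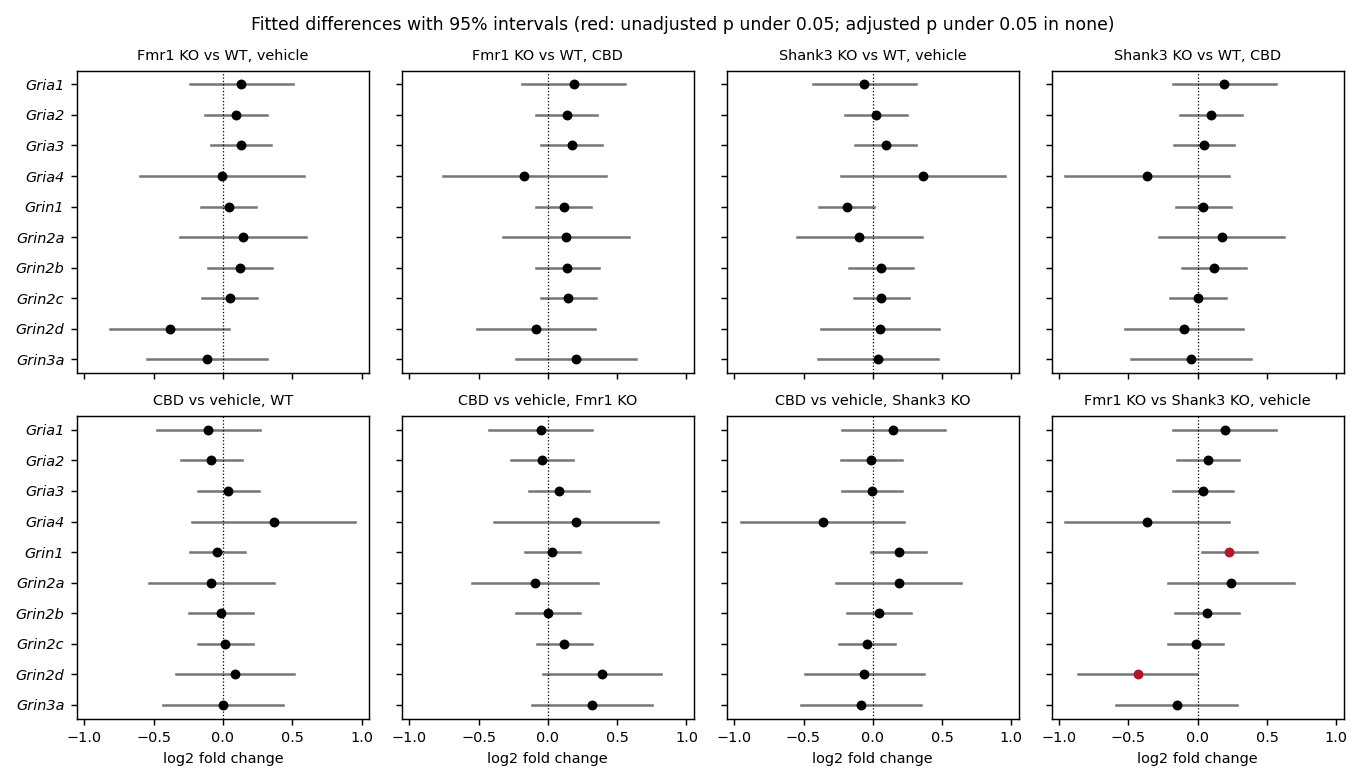
Fitted log2 fold change (x axis) of each subunit gene with its 95% interval, in 8 comparisons named above the panels, each of 6 against 6 libraries. The intervals of Gria4 are the widest, at a half-width of 0.59, and only Grin1 and Grin2d in the comparison of the KO lines (red points) had an unadjusted p under 0.05.

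Sex was compared in a model in which each sex of each group had its own coefficient. In vehicle mice, 0 of 10 members were called between females and males, where 0.0331% of genes were called, and 0 members had an unadjusted p under 0.05, against 2.74% of genes. The smallest p was that of Gria4, at -0.36 for females against males (unadjusted p = 0.157) and -0.12 without the 9 libraries, and the X-linked Gria3 was at -0.09 (unadjusted p = 0.329).

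Grin2c, an NMDA subunit gene with a low level here, had the smallest p of any member in any comparison, in the sex difference of the CBD effect. Its lowest, median and highest level in 9 males was 32.9, 36.7 and 41.6 CPM with vehicle and 33.5, 44.4 and 50.9 CPM with CBD at 5 mg/kg. In 9 females it was 32.8, 38.8 and 43.0 CPM with vehicle and 30.8, 36.6 and 40.0 CPM with CBD at 50 mg/kg. Male CBD libraries held the highest values, and all 4 sets overlapped. The CBD effect, female minus male and averaged over genotypes, was -0.30 (SE 0.11, 95% interval -0.52 to -0.08, unadjusted p = 0.00835, adjusted p = 0.659 by edgeR). It did not pass the threshold, which 0% of genes passed, while 7.4% of genes and 1 of 10 members had an unadjusted p under 0.05. By genotype, the fitted CBD effect in males was 0.12 for WT, 0.24 for Fmr1 KO and 0.19 for Shank3 KO. In females it was -0.09, 0.00 and -0.27, the last with an unadjusted p of 0.0473 and an adjusted p of 1 by edgeR. In these 6 comparisons 0% of genes were called. In males 3.8%, 4.28% and 7.84% of genes had an unadjusted p under 0.05, in the order of the genotypes above, and in females 6.39%, 1.16% and 1.81% had. The 3 male values lay above the 3 female values. Grin2c also varied with the mitochondrial share of counts over the libraries (Pearson's r = -0.56, n = 36, as given with the other relations further on), and the part of that share in the sex difference was not tested.

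**Figure D4:**
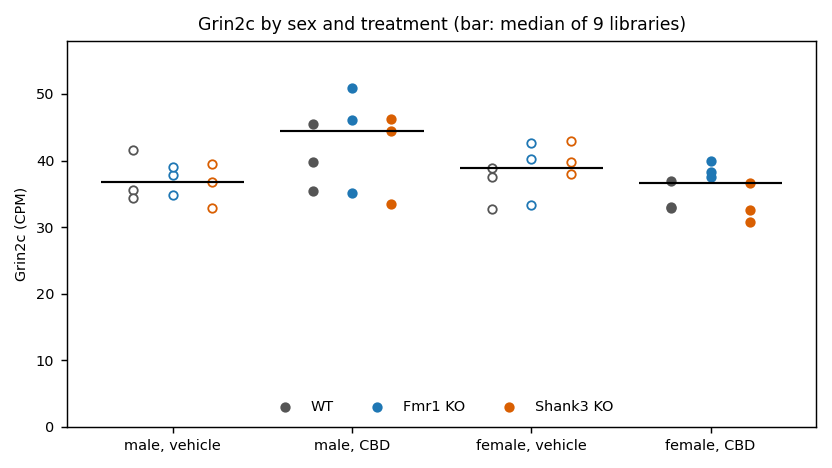
Level of Grin2c in CPM (axis from 0) by sex and treatment, 1 point per library and 9 libraries per set, coloured by genotype, with a bar at each median. The median of male CBD libraries is 44.4 CPM, and the medians of the other sets lie between 36.6 and 38.8 CPM.

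Subunit balance was measured within each library, which does not depend on scaling. The log2 ratio of Grin2a to Grin2b averaged -0.37 ± 0.25 (SD, n = 6) in WT vehicle, -0.31 ± 0.13 in Fmr1 KO vehicle and -0.49 ± 0.16 in Shank3 KO vehicle libraries. Under CBD it averaged -0.42 ± 0.25 in WT, -0.49 ± 0.49 in Fmr1 KO and -0.37 ± 0.31 in Shank3 KO libraries. The wide Fmr1 KO CBD group contains replicate 3, at -1.37. The log2 ratio of Gria1 to Gria2 had group means between 0.85 (Shank3 KO vehicle) and 0.99 (Shank3 KO CBD). Over both ratios and 7 comparisons, 14 in all, each pair of groups overlapped. The adjusted p was 0.838 in each exact two-sided permutation test, where 924 arrangements allow a smallest p of 0.00216. The unadjusted p ran from 0.242 to 0.838.

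The genes around the receptors were counted as 6 lists: 18 AMPA receptor auxiliary subunits, 15 scaffold and trafficking genes, 13 genes of signalling downstream of the NMDA receptor, 15 other glutamate receptors, 12 genes of glutamate and co-agonist supply and 3 RNA editing enzymes. Of these, 71 were tested, and 0 were called in either direction in any of the 15 comparisons. Between 0 and 8 of the 71 had an unadjusted p under 0.05 in a comparison. The highest counts were 8 between the KO lines, against 4.98% of all tested genes, 7 for CBD in Shank3 KO, against 4.41%, 7 for the difference of the CBD effect between Shank3 KO and WT, against 4.74%, and 6 in Shank3 KO against WT under vehicle, against 5.63%. These 4 comparisons share the Shank3 KO vehicle libraries.

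Among AMPA auxiliary subunits, Shisa8 was at -0.39 (SE 0.18, unadjusted p = 0.0328) in Fmr1 KO against WT averaged over treatments, and Cnih3, whose product is a cornichon that slows AMPA receptor closing, at 0.21 (SE 0.10, unadjusted p = 0.0388). Cnih3 also had the smallest p of its list for Shank3 KO against WT (0.12, unadjusted p = 0.215) and for the mean CBD effect (0.16, SE 0.08, unadjusted p = 0.0473). The medians of this list were 0.03, 0.01 and 0.08 in these 3 comparisons, against 0.000949, -0.00519 and 0.00838 over all genes.

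Among scaffold and trafficking genes, Grip2, which binds Gria2 and Gria3 products, was at -0.27 (unadjusted p = 0.0703) in Fmr1 KO. Neto1 was at 0.14 (unadjusted p = 0.189) in Shank3 KO, and Epb41l1 at 0.10 (unadjusted p = 0.0691) for the mean CBD effect. In the NMDA signalling list the smallest p belonged to the calcineurin subunit Ppp3r1 (0.14, unadjusted p = 0.0832), the kinase Fyn (0.10, unadjusted p = 0.15) and the Rac activator Tiam1 (0.19, unadjusted p = 0.0234) in the same order of comparisons. None of these was called.

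Among other glutamate receptors, Grm2, a presynaptic metabotropic receptor, differed most in comparisons that hold the Shank3 KO vehicle libraries, though it was called in none. It was at -0.81 (SE 0.19, unadjusted p = 0.000141, adjusted p = 0.213 by edgeR) in Shank3 KO against WT under vehicle. CBD against vehicle in Shank3 KO gave 0.89 (SE 0.19, unadjusted p = 4.28e-05, adjusted p = 0.493 by edgeR), the smallest p of all tested genes there. The CBD effect in Shank3 KO exceeded that in WT by 0.98 (SE 0.26, unadjusted p = 0.000737, adjusted p = 0.912 by edgeR). Dentate markers summed to a median of 208 CPM in Shank3 KO vehicle and 319 CPM in Shank3 KO CBD libraries, against 294 and 303 CPM in WT, and their part in the Grm2 values was not tested. Averaged, Grm2 was at 0.33 (SE 0.11, unadjusted p = 0.0041, adjusted p = 1 by edgeR) for the mean CBD effect and at -0.32 (SE 0.13, unadjusted p = 0.0216, adjusted p = 1 by edgeR) in Shank3 KO against WT. Both averages also hold the Shank3 KO vehicle libraries. The difference of 0.98 from WT is larger than the 0.89 within Shank3 KO, so the fitted CBD value in WT had the opposite sign. Grin3b was at -0.59 (SE 0.30, unadjusted p = 0.0513) in Fmr1 KO. Among supply genes the smallest p belonged to the glial transporter Slc1a2 in Fmr1 KO (0.15, unadjusted p = 0.0726) and to glutamine synthetase Glul in Shank3 KO (-0.11, unadjusted p = 0.226). The editing enzyme Adar was at 0.06 (unadjusted p = 0.236) in Fmr1 KO and 0.02 (unadjusted p = 0.636) for CBD, and Adarb2 at 0.02 (unadjusted p = 0.907) in Shank3 KO. The background shares of these comparisons were 0.0378%, 0.0614% and 0.0189% of genes called.

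Where groups did not separate the members, single libraries did. Permutations shuffled the residual levels freely and did not allow for the group means and sex removed before. The permutation p values, here and for the marker scores, are therefore somewhat too small. The log2 levels of the members were compared over the 36 libraries after group means and sex were removed, for all 45 pairs. Of these, 28 had an adjusted permutation p under 0.05, 16 with a positive and 12 with a negative r. The share among pairs of other genes was not computed, so the count cannot be read as a trait of receptor genes. Within a library all genes share the tissue piece, the depth and the cell composition, so these values describe how the libraries vary together.

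Gria1, Gria2, Grin2a and Grin2b formed a block. Gria1 and Grin2a had Pearson's r = 0.94 and Spearman's rho = 0.92 (n = 36, permutation p = 1e-05 for each, the smallest that 100000 permutations can give, adjusted p = 6.43e-05), and r = 0.92 without the 2 farthest libraries. Gria2 and Grin2b had r = 0.85 and rho = 0.84 (permutation p = 1e-05 for each, adjusted p = 6.43e-05), and r = 0.85 without the 2 farthest. The other 4 pairs within this block had r between 0.80 and 0.83. Grin1 joined it more loosely, with r between 0.38 and 0.51.

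Grin2d, Grin3a and Gria4 had negative r with members of this block, though not with each member past the threshold. For Grin2d all 4 pairs passed, with r between -0.58 and -0.74. For Grin3a the pairs with Gria1, Gria2 and Grin2a passed, and that with Grin2b did not (r = -0.35, adjusted p = 0.0537 by permutation). For Gria4 the pairs with Gria1 (r = -0.57) and Grin2a (r = -0.41) passed, and those with Gria2 (r = -0.29, adjusted permutation p = 0.114) and Grin2b (r = -0.24, adjusted permutation p = 0.204) did not. Gria2 and Grin2d had r = -0.74 and rho = -0.76 (permutation p = 2e-05 and 1e-05, adjusted p = 9e-05), and r = -0.73 without WT CBD 6 and WT vehicle 1. Gria1 and Grin3a had r = -0.66 and rho = -0.64 (permutation p = 1e-05 and 5e-05, adjusted p = 6.43e-05). Outside the block, Gria4 and Grin1 had r = -0.66 and rho = -0.67 (permutation p = 5e-05 and 2e-05, adjusted p = 0.000173). Among themselves, Grin2d and Grin3a had r = 0.64 and rho = 0.65 (permutation p = 2e-05 and 6e-05, adjusted p = 9e-05). Gria3 and Gria4 had r = 0.65 but rho = 0.38 (permutation p = 3e-05 and 0.0239, adjusted p = 0.000123), and r = 0.51 without Fmr1 KO CBD 3 and WT CBD 2. Grin2c had no pair under the threshold.

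The same residual levels were set against 14 marker scores, the share of counts in genes longer than 100 kb, the mitochondrial share and the total count, 170 relations in all, of which 59 had an adjusted permutation p under 0.05. For other genes this share was not computed either. Gria4 went against dentate markers (r = -0.80, rho = -0.74, permutation p = 1e-05 for each, adjusted p = 0.000189, r = -0.76 without the 2 farthest libraries), and with striatal markers (r = 0.56, rho = 0.63, adjusted p = 0.00241). Fmr1 KO CBD 3 had the lowest dentate score and the highest Gria4 level of all libraries. Gria3 went against astrocyte markers (r = -0.87, rho = -0.88, permutation p = 1e-05 for each, adjusted p = 0.000189) and with the share of counts in genes longer than 100 kb (r = 0.77, rho = 0.69, adjusted p = 0.000189). That share ran from 37.1% in WT CBD 1, the library with the lowest Gria3 and Gria4 levels, to 53.2% in WT CBD 2.

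The block of Gria1, Gria2, Grin2a and Grin2b went against interneuron markers, with r between -0.58 (Gria2) and -0.71 (Gria1 and Grin2a), and with CA1 markers, with r between 0.45 and 0.54. Without Fmr1 KO CBD 3 and WT CBD 6, both among the libraries that stood apart, the CA1 values fell to 0.29 for Gria1, 0.36 for Gria2, 0.36 for Grin2a and 0.43 for Grin2b. Grin1 went with CA1 markers (r = 0.70, rho = 0.68, permutation p = 1e-05 and 2e-05, adjusted p = 0.000189) and against thalamic markers (r = -0.70, rho = -0.69, permutation p = 1e-05 for each, adjusted p = 0.000189). Grin2d went with thalamic markers (r = 0.76, rho = 0.59, permutation p = 1e-05 and 0.00022, adjusted p = 0.000189), and its highest level, 17.6 CPM, was in WT CBD 6, the library with the highest thalamic score. Grin3a went with interneuron markers (r = 0.61, rho = 0.64, permutation p = 0.00014 and 8e-05, adjusted p = 0.00125) and against dentate markers (r = -0.62, rho = -0.58, permutation p = 1e-05 and 0.0002, adjusted p = 0.000189). Grin2c had 1 relation under the threshold, with the mitochondrial share (r = -0.56, rho = -0.55, permutation p = 0.00052 and 0.00062, adjusted p = 0.00316). No member had such a relation with the total count. In bulk tissue, fewer cells of a type and less RNA per cell cannot be told apart.

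**Figure D5:**
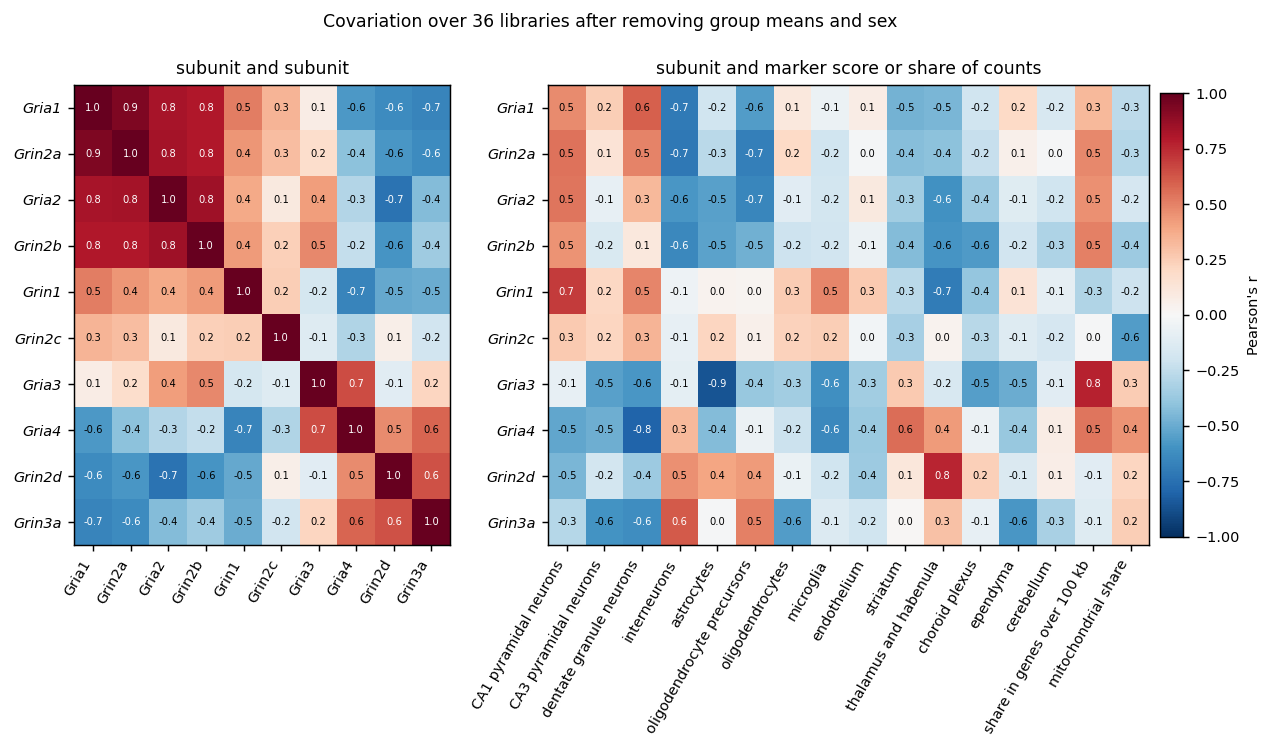
Pearson's r (colour from -1 to 1) over 36 libraries, after removal of group means and sex, between subunit genes (left) and between subunit genes and marker scores or shares of counts (right). Gria1, Grin2a, Gria2 and Grin2b form a positive block with r of 0.80 to 0.94, and r with each of them is negative for Gria4, Grin2d and Grin3a, with adjusted p of 0.0537 to 0.204 in 3 of these 12 pairs and under 0.05 in the rest.

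The genes nearest to each member by this measure were looked up among 15798 genes with a mean of at least 1 CPM. Gria4 was nearest to Rasgef1b (r = 0.98) and Pcdh15 (r = 0.98), and Grin2a to Plxna4 (r = 0.97) and Iqgap2 (r = 0.96). Gria1 was nearest to Arhgap39 (r = 0.96) and Wscd2 (r = 0.96), Gria2 to Cnksr2 (r = 0.94) and Cers6 (r = 0.92), and Gria3 to Ptprr (r = 0.94) and Adgrl3 (r = 0.93). Grin2b was nearest to the calcium channel gene Cacna1e (r = 0.93), and Grin1 to Git1 (r = 0.92) and Cyfip2 (r = 0.88). Grin3a was nearest to Gm9866 (r = 0.91) and Adgra1 (r = 0.90), and Grin2d to Adamts15 (r = 0.84) and Btbd11 (r = 0.84). Grin2c had the weakest neighbours, Smox (r = 0.72) and Slc9a8 (r = 0.65). These are the highest of many values over the same 36 libraries and are given as a description.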

How the data were processed

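Hippocampal RNA from 36 mice was measured. The deposited table holds raw read counts per gene, made by the authors with STAR 2.7.11b, build GRCm39, and featureCounts 2.0.8, per the submitters' processing notes. The sources used here do not give the annotation release or the strand setting. Sex came from the deposited sample table. Symbols, spans and codon stretches came from GENCODE M21 (GRCm38), matched by identifier.

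Counts were fitted in R 4.3.3 with edgeR 4.0.16 (filterByExpr, TMM, quasi-likelihood, 1 coefficient per group and a sex term; Benjamini-Hochberg over 21172 genes), checked on simulated data. Standard errors came from the information matrix and the moderated variance. Alternatives used DESeq2 1.42.0, limma 3.58.1 and other models. A marker score was the mean log2 CPM of its genes. Levels are TMM-scaled CPM, with depth from 11655697 to 33228089 counts. The members and lists were chosen with earlier results of these data known. All members were described. In each comparison the members called were named, else those with an unadjusted p under 0.05, else the 1 with the smallest p. In each list the gene with the smallest p was named for KO against WT averaged over treatments and for the mean CBD effect. Some items these rules select are not reported here. Cnih3 in Fmr1 KO was added with its values seen. So were the Grm2 values that are not averaged over treatments or genotypes, while other list genes in those comparisons were not named.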

Additional observations from a re-analysis of the deposited data

Results flagged for a closer look

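In each group of 6 libraries the highest and lowest library were compared with the rest, for 10 genes and 2 ratios in 6 groups, 72 sets in all. In 8 of them the gap to the nearest library was more than 0.625 of the group's range, where chance gives about 1 in 20 sets.

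Gria4 was high in 3 libraries that stood apart in other markers: Fmr1 KO vehicle 4 at 312 CPM with the next library at 175 CPM, Fmr1 KO CBD 3 at 435 CPM with the next at 190 CPM, and Shank3 KO vehicle 2 at 330 CPM with the next at 233 CPM. Grin3a was high in Fmr1 KO CBD 3, at 130 CPM with the next at 74.9 CPM. Grin2d was high in WT CBD 6, at 17.6 CPM with the next at 10.7 CPM, and in Shank3 KO vehicle 1, at 12.6 CPM with the next at 9.54 CPM. These 2 libraries had the highest thalamic marker sums, 467 and 358 CPM. Gria3 was low in WT vehicle 6, at 415 CPM with the next at 533 CPM. The log2 ratio of Gria1 to Gria2 was low in Shank3 KO vehicle 2, at 0.47 with the next at 0.83.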

How the results depend on the processing

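For 150 member results, 4380 values were computed under alternatives, and 0 passed the threshold; the smallest adjusted p was 0.337 (Gria4, CBD effect, female minus male, with dentate, thalamic and interneuron scores). A separate model held striatal, choroid plexus and oligodendrocyte scores. Its smallest adjusted p for a member was 0.718 by edgeR (Gria2, CBD effect, female minus male, 0.19, unadjusted p = 0.127). Other member values from that model are not given here. The sign changed in 384 of the 4380 values (8.77%), none called. The adjusted p of Grin2c in the sex difference ran from 0.337 to 0.982, with values from -0.35 to -0.26. That of Grin1 between the KO lines ran from 0.611 to 1 and that of Grin2d from 0.611 to 1. With dentate, thalamic and interneuron scores the values of Gria1 averaged over treatments were 0.19 in both Fmr1 KO and Shank3 KO against WT (unadjusted p = 0.00967 and 0.0107), beside 0.16 (unadjusted p = 0.228) and 0.07 (unadjusted p = 0.616) without them. In Shank3 KO against WT under vehicle Gria1 ran from -0.13 to 0.25. The 14 ratio results kept an adjusted p of at least 0.742.

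Counts over all genes moved more. For Fmr1 KO against WT, 7 called genes under CBD became 4 with a strict filter or with the compared groups alone, and 8 averaged over treatments became 4 with the strict filter, 13 with DESeq2 and 16 with dentate, thalamic and interneuron scores. For Shank3 KO against WT, 8 under vehicle became 17 with those scores and 5 without the 9 libraries that stood apart, 9 under CBD became 5 with the compared groups alone, and 13 averaged became 8 without the 9 libraries. Between the KO lines 2 became 8 with DESeq2, 4 with those scores and 1 without the 9 libraries. For the mean CBD effect 4 became 9 with DESeq2, 2 without the 9 libraries, 1 with the replicate block and 0 with the strict filter or no sex term, and 1 to 5 when single libraries were left out. Between the sexes 7 became 3 with the strict filter. The causes were not tested.

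Same-numbered libraries did not deviate together throughout (r from -0.31 to 0.37). For CBD against vehicle their mean r was -0.10 in WT and 0.14 in Shank3 KO. In Shank3 KO 3 of 6 libraries matched best with their own number. Such values cannot exclude a pairing. With the replicate block 0 members were called in each comparison fitted with it, and the sex comparisons were not fitted with it. Depth limits Grin2d most, at 93 counts in 1 library. Whether edited RNA or spliced RNA changed is not resolved by gene-body counts.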
